A study of Mus musculus with 2 samples.

Results

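Red blood cells and their precursors carry a small set of miRNAs at high levels, and 5 mouse miRNAs of this kind were described here: mmu-miR-144-3p, mmu-miR-144-5p, mmu-miR-451a, mmu-miR-486a-5p and mmu-miR-486a-3p, written below without the species prefix. They were chosen by name, as the mature products of 3 hairpin genes. They were 5 of the 1881 mouse miRNAs with probes on the array, and all 5 were measured on both arrays. In the serum exosomes of mice that received bone marrow-derived mesenchymal stem cells together with tumor cells, the 5 miRNAs did not move as a block. Relative to the other miRNAs, both arms of miR-144 were 5.02-fold lower, miR-451a was 2.08-fold higher, miR-486a-5p was 3.15-fold higher and miR-486a-3p differed by 1.05-fold. Other processing limits these values: miR-451a was below 0 on the log2 scale, at -0.21, with quantile normalization, miR-451a and miR-486a-5p were both lower with spike-in or no scaling, and miR-144-5p was at -0.79 with another background correction, normexp.

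The study looked for exosomal miRNAs that accompany bone marrow-derived mesenchymal stem cells in lung cancer. The LLC group was exosomes from the serum of C57BL/6 mice injected subcutaneously with 1000000 Lewis lung carcinoma cells, a mouse lung cancer line, which carried luciferase. The MSC+LLC group was exosomes from mice that received the same number of these cells mixed with murine bone marrow-derived mesenchymal stem cells, whose number the labels do not give. By the study's methods the mice were females aged 6 weeks, and by the labels the serum of both groups was collected at a mean tumor volume of 200 mm3. There was 1 array per group, the number of mice behind each array is not given in the sources used here, and no mice without a tumor were included. The labels call the source serum and the study's text calls it plasma, and the labels were followed. Both groups therefore share the tumor cells, the strain and the tumor volume at collection, and the mesenchymal stem cells are the planned difference between them. Differences between the mice, the blood draws or the labelling of the samples cannot be told apart from it. Both arrays came from 1 slide and 1 scan, so that group and array position cannot be told apart. With 1 array per group no difference below has a replicate check or a test. The SD given with each signal is over the repeated spots of a probe on 1 array and measures technical spread only.

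miRNAs are made from hairpin precursors, whose arms yield the -5p and -3p products, and they pair with messenger RNAs mainly through the seed near their 5′ end. miR-144 and miR-451a come from 1 transcript that the transcription factor GATA1 switches on in red cell precursors, and miR-451a stays abundant in mature red cells. miR-144 is cut by Dicer, whereas the short hairpin of miR-451a skips Dicer and is cut by Argonaute 2. miR-486a lies within Ank1, the gene for the red cell membrane protein ankyrin, and is abundant in red cells and in striated muscle. Since red cells hold so much of these miRNAs, their level in serum or plasma is also used to judge how many red cells broke open when blood was drawn.

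The mature sequences show how the members differ from each other and from their nearest relatives. They are given 5′ to 3′ as in RefSeq on GRCm38.p6, with the seed, bases 2 to 8, in capitals. miR-451b, which is read from the opposite strand of the miR-451a hairpin, and miR-101a-3p, which shares bases 2 to 7 with miR-144-3p and has only those in capitals, are shown for comparison.
miR-144-3p: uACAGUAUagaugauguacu
miR-144-5p: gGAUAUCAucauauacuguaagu
miR-451a: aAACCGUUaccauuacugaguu
miR-451b: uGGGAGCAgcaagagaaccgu
miR-101a-3p: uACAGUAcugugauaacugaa
Among the 1608 miRNAs of the array with a RefSeq mature sequence, none shared bases 2 to 8 with miR-144-3p, miR-144-5p or miR-451a. Of the 20 bases of miR-144-3p 30% are G or C, against 30.4% of the 23 bases of miR-144-5p and 36.4% of the 22 bases of miR-451a.

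The hairpins are shown because miR-144 and miR-451a are neighbors: they lie side by side on the plus strand of chromosome 11, with 99 bases between them and no other annotated gene overlapping them but Mir451b. Mir144 is at chr11:78073005-78073070 and Mir451a at chr11:78073170-78073241 of GRCm38.p6. The mature arms are in capitals, 2 in Mir144 and 1 in Mir451a.
Mir144: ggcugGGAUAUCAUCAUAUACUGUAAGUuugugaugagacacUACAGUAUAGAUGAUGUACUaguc
Mir451a: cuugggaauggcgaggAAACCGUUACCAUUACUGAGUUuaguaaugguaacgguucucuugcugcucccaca
In Mir451a the mature miRNA runs from base 17 to base 38 of the hairpin and crosses its loop. Mir451b occupies the same 72 bases on the minus strand. Mir486 lies within Ank1 and also within Gm15816 in the RefSeq annotation. No sequence is given here for miR-486a.

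The array labels 100 ng of RNA with 1 dye, Cy3, and reads each miRNA from several spots of, usually, 2 probes of different length. A probe was counted as detected when more than 50% of its spots, outlier spots left out, were well above the local background. On the LLC array 502 miRNAs were detected and on the MSC+LLC array 258, and 240 were measured on both. Signals differed widely in brightness between the arrays: over the probes that both arrays detected, the 75th percentile was 2883 intensity units for LLC and 250.3 for MSC+LLC. Each array was divided by that value, so that a log2 ratio below is the change of a miRNA relative to the bulk of the measured miRNAs and not the change in its amount per mouse, per volume of serum or per exosome. As 100 ng of RNA was labelled for both arrays, the signals give no measure of the number of exosomes. The cause of the dimmer MSC+LLC array was not tested. No spot was saturated. The lowest detected signal was 20.9 units on the LLC array and 18.8 units on the MSC+LLC array.

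miR-144-3p is the arm of miR-144 usually loaded into Argonaute. Its brighter probe gave 10777 ± 1161 units on the LLC array (SD, n = 15 spots, 8259 to 12464) and 186 ± 23.8 units on the MSC+LLC array (SD, n = 14 spots, 130 to 209). The dimmer probe gave 8507 ± 795 units on the LLC array (SD, n = 15 spots) and 147 ± 21.4 units on the MSC+LLC array (SD, n = 15 spots). No spot of either probe on the MSC+LLC array came near any spot on the LLC array, and before scaling the signal was 57.9-fold dimmer. The ratios of the 2 probes differed by 0.0038 on the log2 scale.

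miR-144-5p is the other arm of the same hairpin. Its brighter probe gave 1345 ± 78.2 units on the LLC array (SD, n = 14 spots, 1214 to 1470) and 23.3 ± 5.08 units on the MSC+LLC array (SD, n = 15 spots, 14.0 to 30.6). This was 57.8-fold dimmer, as for miR-144-3p, but the value on the MSC+LLC array lay just above the lowest detected signal, with 13 of 15 spots above background. Its dimmer probe gave 138 ± 15.1 units on the LLC array (SD, n = 14 spots) and was not detected on the MSC+LLC array, where 0 of 15 spots were above background. The ratio of miR-144-5p therefore rests on 1 probe near the limit of detection.

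miR-451a, made from the neighboring hairpin, was still bright on the MSC+LLC array. Its brighter probe gave 67741 ± 4375 units on the LLC array (SD, n = 15 spots, 60959 to 74259) and 15003 ± 831 units on the MSC+LLC array (SD, n = 15 spots, 13226 to 16132). Its dimmer probe gave 59745 ± 3211 units on the LLC array (SD, n = 15 spots) and 8830 ± 828 units on the MSC+LLC array (SD, n = 15 spots). The signal was thus dimmer on the MSC+LLC array, as for most miRNAs, but by only 5.53-fold over both probes against a median of 10.4-fold over the 240 miRNAs. The probes disagreed: scaled, the brighter one gave a log2 ratio of 1.35 and the dimmer one 0.77, and only 12 of the 146 miRNAs with 2 measured probes had a wider gap. miR-451b was not detected on either array, with 0 spots above background for either probe.

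miR-486a-5p is the abundant product of the miR-486a hairpin. Its brighter probe gave 9057 ± 684 units on the LLC array (SD, n = 15 spots) and 2359 ± 205 units on the MSC+LLC array (SD, n = 15 spots). Its dimmer probe gave 5425 ± 734 units on the LLC array (SD, n = 14 spots) and 1557 ± 148 units on the MSC+LLC array (SD, n = 14 spots). It lost the least signal of the 5 members, 3.66-fold before scaling, and its 2 probes gave scaled log2 ratios of 1.59 and 1.73. miR-486a-3p, the other arm, gave 273.5 ± 20.0 units on the LLC array (SD, n = 15 spots) and 24.96 ± 5.73 units on the MSC+LLC array (SD, n = 15 spots) with its brighter probe. Its dimmer probe was not detected on the MSC+LLC array, so this ratio too rests on 1 probe, with 13 of 15 spots above background. miR-486b-3p, from the gene on the opposite strand, was detected on the LLC array with 163 ± 12.1 units (SD, n = 14 spots). On the MSC+LLC array the same probe gave 15.4 ± 2.73 units (SD, n = 14 spots) and was not detected, with 1 of 14 spots above background. The median over the 240 miRNAs was 10.4-fold dimmer on that array. No probe carried the name miR-486b-5p, the other arm from the miR-486b gene, and the part of miR-486b-5p in the signal of miR-486a-5p was not tested.

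**Figure D1:**
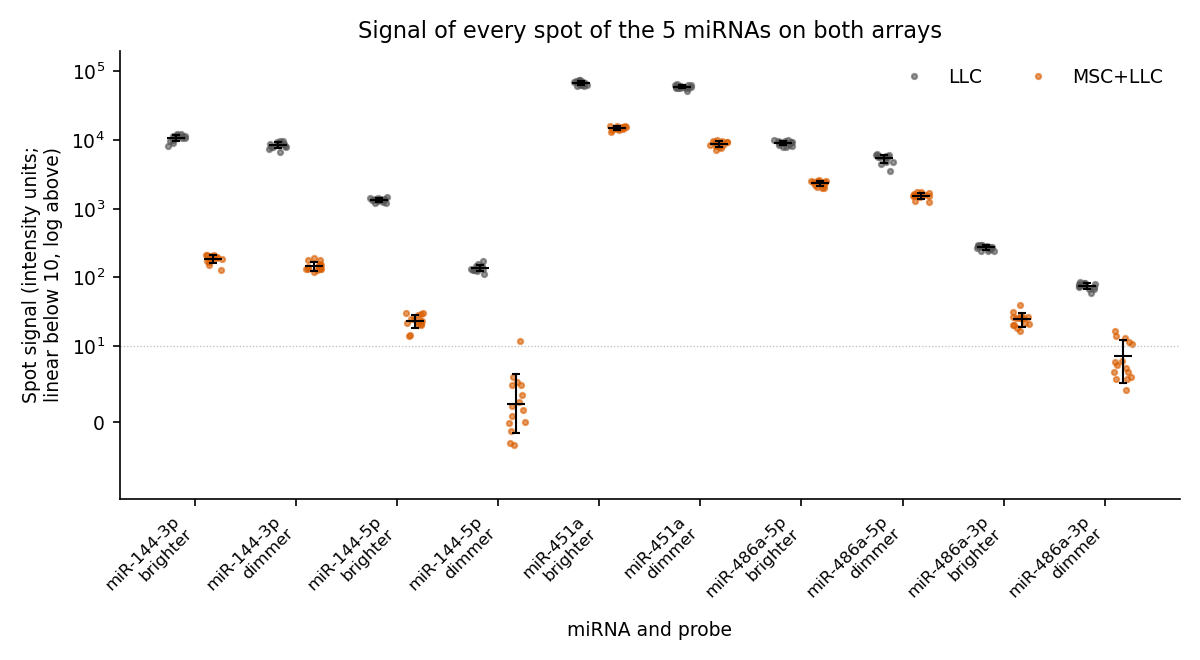
Signal of each spot, in intensity units (linear below 10 and logarithmic above), for the brighter and the dimmer probe of the 5 miRNAs on the LLC array (grey) and the MSC+LLC array (orange), with the mean and SD over spots in black. The miR-144 probes drop furthest between the arrays, and the dimmer probes of miR-144-5p and miR-486a-3p are at the level of the background among the MSC+LLC spots.

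After scaling, miR-144-3p had a log2 ratio, MSC+LLC over LLC, of -2.33 (SD over spots 0.25, 2 probes) and miR-144-5p of -2.33 (0.33, 1 probe). Only 1 of the 240 miRNAs, miR-6360, had a lower ratio than either arm of miR-144. These ranks leave out the miRNAs detected on the LLC array alone, which have no ratio. The brighter probe of miR-144-5p, at 1345 units on the LLC array, ended just above the lowest detected signal. A dimmer miRNA with a like drop would not have been ranked. miR-451a had a log2 ratio of 1.06 (0.14), with 64 miRNAs higher, and miR-486a-5p of 1.66 (0.21), with 46 higher. miR-486a-3p had a log2 ratio of 0.07 (0.35), near the middle, with 129 miRNAs higher and 110 lower. At a threshold of 2-fold, 2 of the 5 members were higher, while 27.1% of all 240 miRNAs were. Likewise 2 of the 5 members were at least 2-fold lower, against a background of 11.2%, but miR-144-5p was at -0.79 and so within 2-fold with normexp. miR-451a lay just inside the threshold on the higher side: with outlier spots kept its log2 ratio was 0.996, and in the deposited values 0.79. The quartiles of all 240 ratios were -0.45 and 1.18, so that miR-144 lay far below the lower quartile, miR-451a below the upper one and miR-486a-5p above it.

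**Figure D2:**
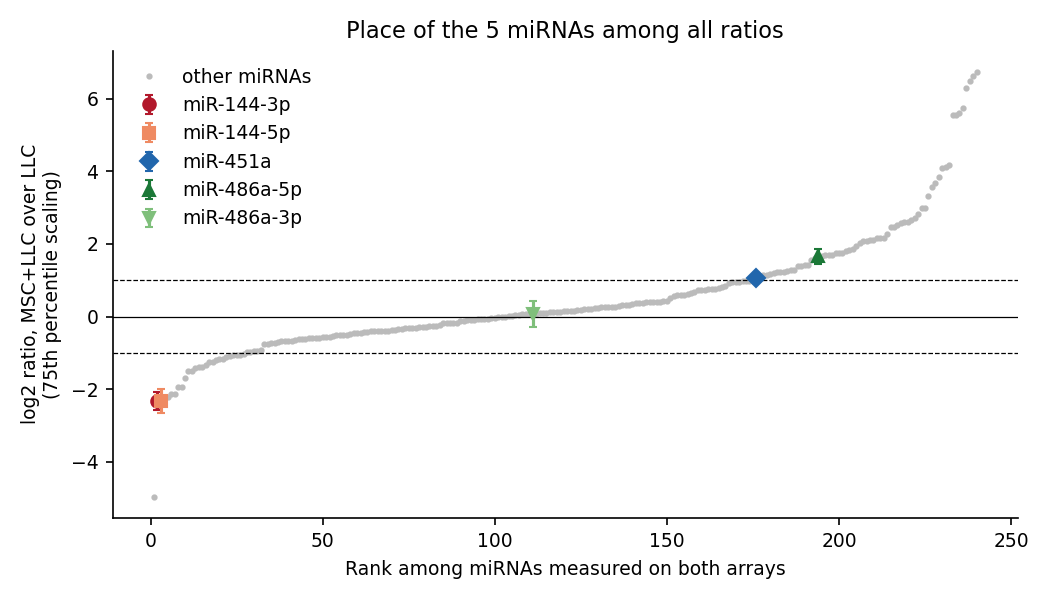
The log2 ratios, MSC+LLC over LLC after scaling, of 240 miRNAs in rank order, with the 5 members marked and bars of 1 SD over spots. Dashed lines are at 2-fold. Both arms of miR-144 (-2.33) lie at the low end, miR-486a-3p (0.07) near the middle and miR-451a (1.06) and miR-486a-5p (1.66) in the upper part.

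With this processing the order of the members was miR-144-3p and miR-144-5p, then miR-486a-3p, miR-451a and miR-486a-5p. The arms of miR-144 differed by 0.0011 (SD over spots 0.41), within the spot spread. miR-486a-5p exceeded miR-451a by 0.60 (0.25), or 1.51-fold, which was more than the SD over spots but about the size of the gap of 0.58 between the 2 probes of miR-451a. With the brighter probes alone this difference was 0.23. The steps between the other neighbors were wider than the spot spread, but with normexp miR-486a-3p, at 1.29, lay above miR-451a, at 0.80. With quantile normalization miR-486a-3p was at -0.53 and miR-451a at -0.21, a step smaller than the SD over spots of miR-486a-3p, 0.35. miR-451a exceeded miR-144-3p by 3.39 (0.28), or 10.5-fold, and miR-144-5p by 3.39 (0.36). miR-486a-5p exceeded miR-144-3p by 3.98 (0.32), or 15.8-fold. A single scaling factor for each array cancels in such differences between miRNAs, so these do not depend on which factor was chosen.

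To place these gaps, they were set beside the other miRNAs that share a precursor or a locus. 13 hairpins had both arms measured on both arrays, and with the processing used above the arms of miR-144 were the closest of them. The median gap was 2.55 on the log2 scale, with quartiles of 1.58 and 3.14, and the next closest was miR-142a at 0.12, with 1 probe for each arm. The closeness of the miR-144 arms rests on 1 dim probe of miR-144-5p: their gap was 0.51 with quantile normalization, with 1 hairpin closer, and 1.38 with normexp, with 4 closer. The arms of miR-486a were 1.58 apart (SD over spots 0.40), or 3.00-fold, with 9 hairpins wider and 3 narrower, but 0.14 apart with normexp, where they were the closest of the 13. Pairs from different hairpins of 1 strand within 10000 bases were mostly close. Over 40 such pairs the median gap was 0.54 and 30 pairs differed by at most 1. The gap between miR-144-3p and miR-451a was the widest of the 40, miR-144-5p and miR-451a came next, and the widest pair without a member, miR-18a-5p with miR-92a-3p, differed by 2.65. With quantile normalization 3 pairs were wider than miR-144-3p with miR-451a, at 2.22, and with normexp it was the widest, at 2.97. miR-144-5p with miR-451a was the widest with quantile normalization, at 2.73, and had 6 wider pairs with normexp, at 1.59. Some pairs share a miRNA, and a gap also contains differences between probes, so these ranks describe the 2 arrays and are not a test.

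**Figure D3:**
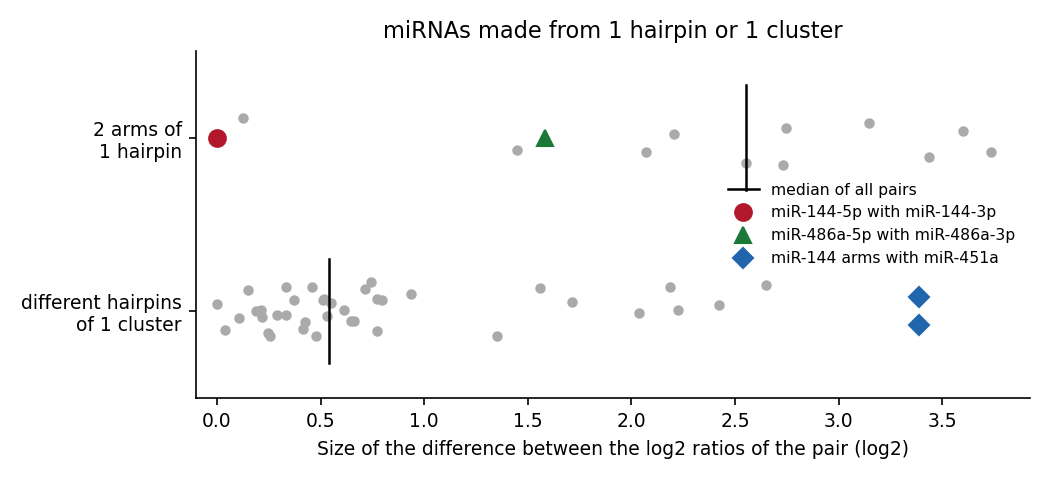
Size of the difference between the log2 ratios of paired miRNAs, for the arms of 13 hairpins (top) and for 40 pairs from different hairpins of 1 cluster (bottom), with the median of each set as a line. With the 75th percentile scaling, the arms of miR-144 have the smallest gap among arms (0.0011) and miR-144 with miR-451a the largest among clustered hairpins (3.39).

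The signs of miR-451a and miR-486a-5p depended on how the arrays were brought to 1 scale, whereas miR-144 was lower on the MSC+LLC array under every scaling tried. With no scaling all 5 members were lower, by between -1.87 for miR-486a-5p and -5.86 for miR-144-3p, since 226 of the 240 miRNAs were dimmer. The labelling spike-ins, RNAs added to each sample before the dye, differed by -1.32 between the arrays. The hybridization spike-ins, added after labelling, differed by 0.04. Scaled to the labelling spike-ins, miR-451a had a log2 ratio of -1.15 and miR-486a-5p of -0.55, and the median of all 240 miRNAs was -2.06. Scaled to the 75th percentile of all probes, detected or not, miR-451a was at -0.15 and miR-486a-5p at 0.44. Of all miRNAs past 2-fold, 70.7% were higher with the scaling used above, 17.5% with the percentile of all probes and 7.69% with the labelling spike-ins. Relative to the median of the 240 miRNAs, a single factor per array cancels, and the members stood at -2.48 for miR-144-3p, -2.48 for miR-144-5p, 0.91 for miR-451a, 1.51 for miR-486a-5p and -0.08 for miR-486a-3p.

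**Figure D4:**
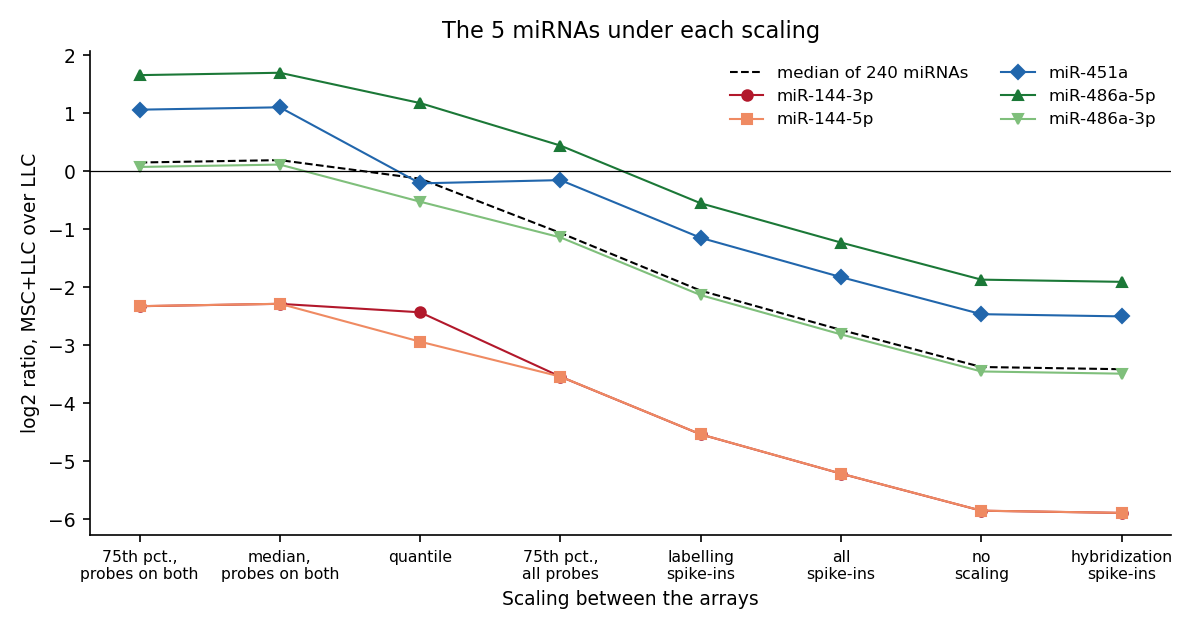
The log2 ratios, MSC+LLC over LLC, of the 5 members and the median of 240 miRNAs (dashed) under 8 ways to scale the arrays. miR-144 is below the median and below 0 in each, and miR-451a and miR-486a-5p change from above to below 0 (to -2.47 and -1.87 with no scaling).

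The 3 members with a RefSeq sequence are all poor in G and C, and base content moved with the ratios across the array. For 197 of the 240 miRNAs a mature sequence was found by name. The rest were left out and include some of the most extreme ratios, such as miR-669p-3p at 6.63, miR-466f-3p at 5.75 and miR-6360 at -4.96. Left out were more of the 65 higher calls among all 240 miRNAs than of the 27 lower ones. Of the 3 terciles by base content, the one with the fewest G and C bases (28.6% to 45.5%, n = 67) had a median log2 ratio of -0.46, with 9 miRNAs at least 2-fold higher and 18 lower. In the middle tercile (n = 64) the median was 0.25, with 16 higher and 2 lower, and in the highest tercile (n = 66) it was 0.26, with 16 higher and 3 lower. Over the 197 miRNAs the correlation of base content with the ratio was weak (Pearson's r 0.18, Spearman's rho 0.31), and the points share both arrays and their scaling. Within the lowest tercile, none of the other 66 miRNAs had a lower ratio than miR-144-3p and 1, miR-144-3p itself, was lower than miR-144-5p. miR-451a stood in the upper part of the same tercile, with 58 of the other 66 miRNAs lower and 8 higher. miR-101a-3p, which shares bases 2 to 7 with miR-144-3p and has 33.3% G and C, had a log2 ratio of -1.51, its brighter probe going from 670 to 20.4 units. This ratio rests on 1 probe near the limit of detection. The part of base content in the ratio of miR-144 was not tested.

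**Figure D5:**
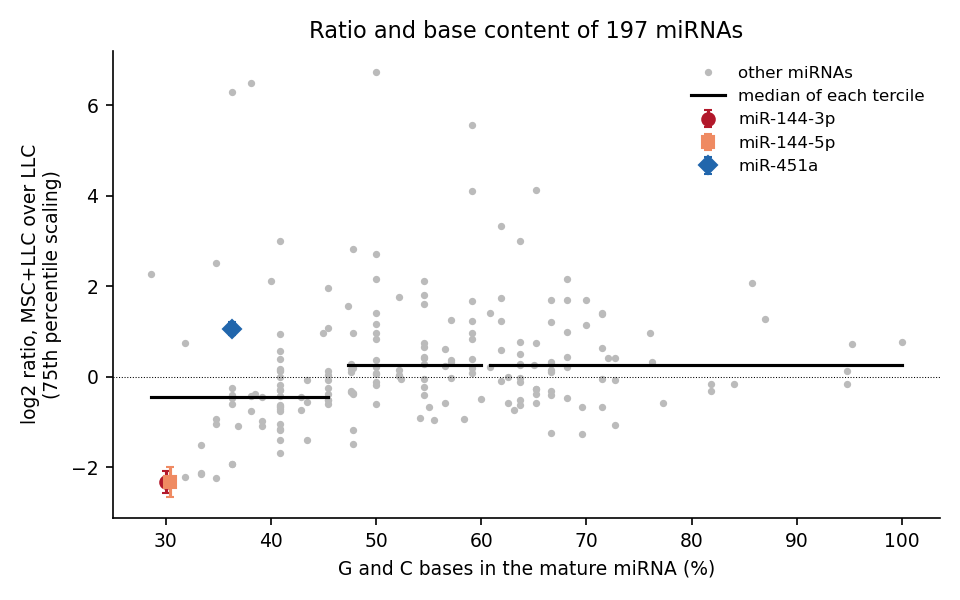
The log2 ratio, MSC+LLC over LLC after scaling, of 197 miRNAs against the share of G and C bases in the mature sequence (%), with miR-144-3p, miR-144-5p and miR-451a marked, bars of 1 SD over spots, and the median of each tercile as a line. The medians are -0.46, 0.25 and 0.26, and in the lowest tercile miR-144 lies at the low end and miR-451a in the upper part.

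Other miRNAs that red cells carry in quantity spread over a wide range of ratios. Of 16 such miRNAs 13 were measured on both arrays, with 3 at least 2-fold higher, 2 lower and 8 in between, shares near the 27.1% and 11.2% of all 240 miRNAs, and a median log2 ratio of -0.31 against 0.15 for all 240 miRNAs. miR-92a-3p, of the miR-17-92 cluster, was closest to miR-451a, with a log2 ratio of 1.25. miR-16-5p, abundant in red cells and in most other cells, had -0.39, miR-25-3p had -0.19 and miR-22-3p had 0.11. The lowest were miR-15b-5p at -1.04 and miR-103-3p at -1.50, neither as low as miR-144. miR-183-5p and miR-484 were both at 3.00, but each on 1 dim probe that gave 75.3 and 70.2 units on the LLC array. miR-363-3p was found on the LLC array alone, and miR-182-5p and miR-96-5p on neither.

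The level of miR-451a against miR-23a-3p, a miRNA that red cells hold little of, is a common measure of broken red cells in serum and plasma. On the log2 scale it was 0.78 (SD over spots 0.20), or 1.72-fold, higher on the MSC+LLC array, with miR-23a-3p itself at 0.28. miR-144-3p, at -2.33, lay on the other side of miR-23a-3p. Under quantile normalization the difference between miR-451a and miR-23a-3p was -0.29. The state of the blood samples is not given in the sources used here, and the part of broken red cells in these values was not tested.

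miRNAs of other cell types were set beside the members, since miR-486a is also a muscle miRNA. In striated muscle, 4 of 7 listed miRNAs were measured, all above 0 with a median of 1.12: miR-133a-3p, of skeletal and heart muscle, had the highest ratio, followed by miR-133b-3p at 1.17, miR-206-3p at 1.07 and miR-1a-3p at 0.15. Of these 4, 3 were at least 2-fold higher, against 27.1% of all 240 miRNAs. The median of all 240 was 0.15, and 53.8% of them lay above miR-486a-3p, at 0.07. miR-499-5p, of heart and slow muscle, was found on the LLC array alone, going from 52.0 to 4.97 units, and the cardiac miR-208a-3p and miR-208b-3p were not detected on either array. The 4 measured miRNAs thus lay on the same side as miR-486a-5p with this scaling, and below 0 in their median with the percentile of all probes, with the spike-ins and with no scaling. Of 7 leukocyte and platelet miRNAs 5 were measured, with a median of -0.51. The arms of miR-142a, of blood cells in general, were near miR-144 at -2.25 and -2.12, while the myeloid miR-223-3p was at 0.14. miR-150-5p, going from 185 to 19.5 units, and miR-155-5p, going from 50.4 to 3.56 units, were found on the LLC array alone. Each arm of miR-142a rests on 1 probe, at 46.6 and 21.4 units on the MSC+LLC array, where the lowest detected signal was 18.8. Of 8 miRNAs of mesenchymal stromal cells 4 were measured, none past 2-fold, with a median of 0.70, and miR-143-3p and miR-100-5p were found on the LLC array alone. Of 4 hepatocyte miRNAs 2 were measured, miR-122-5p at 0.78 and miR-192-5p at -0.32, and miR-194-5p was found on the LLC array alone. The part of these cell types in the values of the members was not tested.

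Among 133 miRNAs with 2 detected probes on the same side of 0, those nearest in ratio to the arms of miR-144 were miR-26b-5p at -2.15, let-7a-5p at -1.94 and let-7g-5p at -1.93. Those nearest to the mean of miR-451a and miR-486a-5p, which was 1.36, were miR-6931-5p at 1.38, miR-5128 at 1.40 and miR-3091-5p at 1.41. Likeness here is the distance between single log2 ratios from 1 pair of arrays.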

How the data were processed

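Exosomal RNA of each group was hybridized to 1 mouse miRNA array of 1 colour. The authors scanned the slide and extracted spot intensity values with Agilent Feature Extraction, version 11.5.1.1 per the file headers and 10.7 in the submitters' processing notes. These background-subtracted intensities were the main values. The authors also deposited a log2 table of summed signals per miRNA, normalized between arrays, used as an alternative.

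Control spots and outlier spots were left out, spots averaged per probe, a probe called detected at 50% of its spots well above background, and each array divided by the 75th percentile of probes detected on both arrays. Probe log2 ratios were averaged per miRNA. The miRNA names on the array matched a RefSeq mature sequence in 1608 of 1881 cases. Python 3.11.15, pandas 2.3.3 and, for normexp with an offset of 50, limma 3.58.1 in R 4.3.3 were used, and the steps were tested on simulated data. Arrays that number 1 per group limit the precision.

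The miRNAs named are the members, their relatives by locus or seed, miR-23a-3p, the cell type lists, and the 3 miRNAs with 2 detected probes of like sign nearest to miR-144 and to the mean of miR-451a and miR-486a-5p. miR-126-3p and miR-142 were read under their array names miR-126a and miR-142a. The members and lists were chosen with earlier results of these data known, and the comparisons of arms and clusters, miR-6360, miR-18a-5p and the miRNAs poor in G and C were added after the values were seen. Probe sequences were not analysed here. The alternatives were other scalings, spot averages, detection rules, background corrections and fold thresholds, and the deposited values.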

Additional observations from a re-analysis of the deposited data

How the results depend on the processing

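No paired analysis was possible because LLC and MSC+LLC have 1 array each, and no array could be left out. Against the scaling used above, the median of all miRNAs shifted by -1.21 with the 75th percentile of all probes, -0.28 with quantile normalization, -2.89 with all spike-ins, -2.21 with the labelling spike-ins, -3.56 with the hybridization spike-ins, -3.53 with no scaling, 0.69 with normexp background correction and -0.35 in the deposited values. In the order miR-144-3p, miR-144-5p, miR-451a, miR-486a-5p and miR-486a-3p, the log2 ratios were -3.54, -3.54, -0.15, 0.44 and -1.14 for the percentile of all probes, -5.22, -5.22, -1.83, -1.23 and -2.82 for all spike-ins, -4.54, -4.54, -1.15, -0.55 and -2.14 for those added before labelling, -5.89, -5.89, -2.50, -1.91 and -3.49 for those added before hybridization, -5.86, -5.85, -2.47, -1.87 and -3.45 with no scaling, and -2.64, -2.78, 0.79, 1.32 and -0.60 in the deposited values. From miR-144-5p to miR-486a-3p they were -2.94, -0.21, 1.17 and -0.53 with quantile normalization and -0.79, 0.80, 1.43 and 1.29 with normexp. miR-451a was at 1.35 with the brightest probe. Quantile normalization replaces values by rank, and the 2 probes of miR-451a ranked 1 and 2 on the LLC array and 2 and 5 on the MSC+LLC array. The cause of the other changes was not tested, except that a single factor moves all miRNAs alike.

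With quantile normalization miR-451a exceeded miR-144-3p by 2.22, miR-144-5p by 2.73 and miR-23a-3p by -0.29, miR-486a-5p exceeded miR-144-3p by 3.61 and miR-451a by 1.38, and the arms of miR-144 were 0.51 apart. With the brightest probe miR-451a exceeded miR-144-3p by 3.68 and miR-23a-3p by 1.01, and miR-486a-5p exceeded miR-451a by 0.23. With normexp miR-451a exceeded miR-144-3p by 2.97 and miR-144-5p by 1.59, miR-486a-5p exceeded miR-144-3p by 3.59, miR-144-3p minus miR-144-5p was -1.38 and miR-486a-5p minus miR-486a-3p was 0.14.

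The miRNAs at least 2-fold higher and lower numbered 65 and 27. The 75th percentile of all probes gave 27 and 127, all spike-ins gave 11 and 204, the labelling spike-ins gave 15 and 180, the hybridization spike-ins, like no scaling, gave 8 and 217, and the counts were 111 and 10 with normexp, and 35 and 7 at 4-fold. The lower ones were 41 with quantile normalization, 16 with all spots above background, 58 in the deposited values and 47 at 1.5-fold. The higher share of calls was 59% with quantile normalization, 5.12% with all spike-ins, 3.56% with the hybridization spike-ins or no scaling, 91.7% with normexp and 54.7% in the deposited values. In the order all-probe percentile, all spike-ins, labelling spike-ins, hybridization spike-ins and no scaling, the list medians were -1.53, -3.20, -2.52, -3.87 and -3.84 for other red cell miRNAs, -1.72, -3.40, -2.72, -4.07 and -4.04 for leukocytes and platelets, -0.10, -1.77, -1.09, -2.44 and -2.41 for muscle, -0.98, -2.65, -1.98, -3.33 and -3.29 for hepatocytes, and -0.52, -2.19, -1.51, -2.87 and -2.83 for mesenchymal stromal cells. Quantile normalization gave -0.56 for other red cell miRNAs, 0.85 for muscle, 0.055 for hepatocytes and 0.48 for stromal cells. Normexp gave -0.055 for other red cell miRNAs, -0.033 for leukocytes and platelets, 0.61 for hepatocytes and 1.16 for stromal cells. The deposited values gave -0.66 for other red cell miRNAs, 0.83 for muscle, -0.026 for hepatocytes and 0.23 for stromal cells. Leukocytes and platelets were at -0.084 and hepatocytes at 0.42 with all spots above background, and leukocytes and platelets at -0.25 with the scanner software's detection flag and -0.21 with the summed signal per miRNA. Signal over background limits miR-144-5p and miR-486a-3p most: with all spots required above background, neither was measured.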

Other observations

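The miRNAs poorest in G and C on these arrays include several that sit beside miR-144, and these were looked at after the values were seen. Of 17 miRNAs other than the members with no more G and C than miR-451a (36.4%), 13 had a log2 ratio below 0, and the median of the 17 was -0.94. Of all 240 miRNAs, 45.8% lay below miR-486a-3p, at 0.07, and the median was 0.15. Near miR-144 were miR-142a-3p at -2.25, let-7f-5p at -2.23, miR-26b-5p at -2.15 and miR-142a-5p at -2.12. Of these only miR-26b-5p had 2 measured probes. Only 3 of the 17 lay above miR-451a: miR-1187 at 2.52, miR-32-3p at 2.27 and miR-466i-3p at 6.29. miRNAs for which no sequence was found, such as miR-669p-3p at 6.63 and miR-6360 at -4.96, could not enter the 17. miR-21a-5p, with the same base content as miR-451a, was at -0.25.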
